A study of Homo sapiens with 27 samples.

Results

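The 9 genes described here were CIITA and the MHC class II genes CD74, HLA-DRA, HLA-DRB1, HLA-DPA1, HLA-DPB1, HLA-DQB1, HLA-DMA and HLA-DMB, taken by name from the 60619 gene identifiers counted in REH cells. REH is an established human cell line of B-cell precursor acute lymphoblastic leukemia that carries the ETV6/RUNX1 fusion. All samples came from this 1 line and were collected at 72 h. The 27 RNA-seq samples formed 10 groups. Medium alone (n = 2) and NTC, a GapmeR without a target (n = 3), were the controls, pooled as 5 samples. The other groups received 10 µM of 1 of 8 LNA GapmeRs, antisense oligonucleotides that direct RNase H to the RNA they pair with, and took it up without a transfection reagent. There were 2 GapmeRs against each of 4 lncRNAs: lnc-TIMM21-5 (n = 3 and 3 for GapmeR1 and GapmeR2), lnc-NKX2-3-1 (n = 2 and 3), lnc-RTN4R-1 (n = 3 and 3) and lnc-ASTN1-1 (n = 3 and 2). NTC was also given at 10 µM. Comparisons with the controls share the same 5 samples.

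MHC class II molecules are pairs of an alpha and a beta chain that present peptides from the endocytic route to CD4+ T cells, and B cells express them constitutively. CIITA is the transactivator without which class II genes are hardly transcribed. It does not bind DNA itself but is recruited by factors that sit on the conserved X and Y boxes of class II promoters. CD74, the invariant chain, occupies the groove of new class II molecules, and HLA-DM, made of HLA-DMA and HLA-DMB, helps to exchange its remnant for peptide.

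The samples held 14627110 to 22750945 counts assigned to genes. The lncRNA that a GapmeR was designed against was found as the single annotated gene whose transcripts held the whole complement of the oligonucleotide. Its mean level was 13.1% to 18.4% of the controls with the lnc-TIMM21-5 GapmeRs, 15.1% and 15.4% with those of lnc-NKX2-3-1 (0.764 CPM, counts per 1000000 counts assigned, in the controls), 22.5% and 28.0% with those of lnc-RTN4R-1, and 40.4% and 52.2% with those of lnc-ASTN1-1. Of 14 B-cell precursor markers, 13 averaged at least 1 CPM, and VPREB1 had no count in any sample. The summed level of the 8 T and NK cell markers was 0.726 to 2.36 CPM, and that of the 6 erythroid and megakaryocyte markers was at most 0.0574 CPM.

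The sequences of 4 GapmeRs are shown because class II genes differed between both members of each pair. For lnc-NKX2-3-1 GapmeR1, capitals mark the 10 bases that pair without a break with an exon of HLA-DRB1.
lnc-NKX2-3-1 GapmeR1: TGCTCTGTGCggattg
lnc-NKX2-3-1 GapmeR2: ctgatttttagtagtg
lnc-RTN4R-1 GapmeR1: gcattcatgggttaag
lnc-RTN4R-1 GapmeR2: tgctgagacatctagg

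The place in HLA-DRB1 lies in coding exon 4 on the minus strand at chr6:32580830-32580845 (GRCh38). In the near-identical gene HLA-DRB5 the same letters lie in coding exon 4 on the minus strand at chr6:32518640-32518655. Read along the RNA strand, with the bases of the unbroken run in capitals, both are as follows.
HLA-DRB1: gaatctGCACAGAGCA
HLA-DRB5: gaatctGCACAGAGCA

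At this place 14 of the 16 bases of lnc-NKX2-3-1 GapmeR1 paired. Over the whole genes, introns included, the most bases that this oligonucleotide paired without a gap was 13 in HLA-DQB1, 12 in CIITA, HLA-DRA, HLA-DPB1 and HLA-DMA, and 11 in CD74, HLA-DPA1 and HLA-DMB. An unbroken run of 10 bases also occurred in CIITA, at 2 places in exons. Annotated transcripts of 2.27% of 16024 tested genes held an unbroken run of at least 10 bases of this oligonucleotide. Such runs were not particular to it. lnc-NKX2-3-1 GapmeR2 had 11 unbroken bases in CIITA, CD74, HLA-DRA and HLA-DMA, in CD74 also in an exon. In exons, lnc-TIMM21-5 GapmeR1 had 10 in HLA-DPB1, and lnc-TIMM21-5 GapmeR2 had 10 in HLA-DPA1 and CIITA. Letters of the reference genome were used, and the alleles of REH cells may differ from them.

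Promoter sequence is shown for the 4 members that held a match to the X box on their own strand close to the start, since they share the regulator CIITA. The RefSeq promoter table (GRCh38.p14) matched 7 of the 9 genes, with 8 entries, and CIITA and HLA-DRA had none. The 130 bases before the start are given, with matches to ACNGATGA, the core of the X box, and CTGATTGG (Y box) in capitals. Both strands of 250 bases before to 50 after the start were searched, and the letters were chosen after the sequences of the members had been seen.
HLA-DRB1, chr6:32589849-32589978, minus strand: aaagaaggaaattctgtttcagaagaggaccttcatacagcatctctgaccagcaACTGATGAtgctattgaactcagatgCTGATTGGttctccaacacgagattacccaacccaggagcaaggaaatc
HLA-DQB1, chr6:32666658-32666787, minus strand: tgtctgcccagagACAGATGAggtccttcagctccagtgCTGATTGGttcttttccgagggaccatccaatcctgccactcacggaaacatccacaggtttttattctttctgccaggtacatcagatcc
HLA-DMA, chr6:32953098-32953227, minus strand: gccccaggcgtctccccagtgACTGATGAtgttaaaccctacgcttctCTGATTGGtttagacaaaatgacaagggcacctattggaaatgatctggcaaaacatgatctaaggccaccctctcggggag
HLA-DMB, chr6:32941029-32941158, minus strand: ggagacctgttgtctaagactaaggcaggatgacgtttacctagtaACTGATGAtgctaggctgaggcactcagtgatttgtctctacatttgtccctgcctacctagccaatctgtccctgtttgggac

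The X letters were found in 5 of the 7 genes, in CD74 on the opposite strand and farther from the start, and in 2.26% of 35116 promoters. The Y letters were found in 3 of the 7 genes and in 3.97% of promoters. Both together occurred in HLA-DRB1, HLA-DQB1 and HLA-DMA, 18, 18 and 19 bases apart, and in 0.117% of promoters. These are matches of letters only.

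All 9 genes were expressed in every sample. CD74 had the highest level, with 2257, 2745 and 3691 CPM as the lowest, median and highest of 27 samples, and ranked 11 by mean CPM among 16268 genes. HLA-DMB had the lowest, with 142, 160 and 201 CPM. To compare levels between genes, CPM were divided by the length of the canonical transcript. On this scale CD74 had a median of 1661 CPM per kb, HLA-DRA 794, HLA-DPA1 586 and HLA-DRB1 385. HLA-DMA had 258 CPM per kb, HLA-DMB 119, HLA-DQB1 118 and HLA-DPB1 112. The ranges of these last 3 genes overlapped over the 27 samples, so their order is not resolved. CIITA had 48.8 CPM per kb, over a canonical transcript of 16061 bases. Before the division HLA-DPB1 had a median of 447 CPM and HLA-DRB1 471, over canonical transcripts of 3991 and 1223 bases. The transcripts that REH cells use were not determined, so the order per length depends on the annotated lengths. The plot of level per length shows this order.

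**Figure D1:**
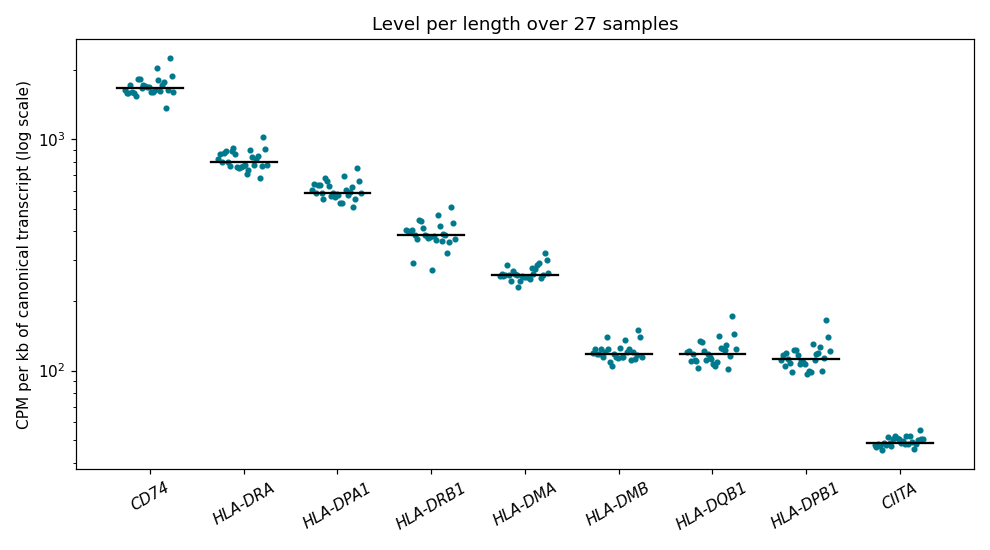
Level of each gene as CPM per kb of canonical transcript (log axis). Each point is 1 of 27 samples and the bar is the median. CD74 lies highest (median 1661) and CIITA lowest (median 48.8), and HLA-DMB, HLA-DQB1 and HLA-DPB1 overlap.

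Levels varied little between samples. The ratio of the highest to the lowest sample was 1.22 for CIITA and 1.87 for HLA-DRB1, the extremes among the 9 genes. By group mean, lnc-RTN4R-1 GapmeR2 was highest for each of the 9 genes. lnc-ASTN1-1 GapmeR1 came next for each gene other than CIITA. The lowest mean was in lnc-NKX2-3-1 GapmeR1 for HLA-DRB1 and CIITA, and in lnc-NKX2-3-1 GapmeR2 for CD74, HLA-DRA, HLA-DPA1, HLA-DPB1 and HLA-DQB1. In an edgeR test over all 10 groups, 2622 of 16268 genes were called at an adjusted p below 0.05 (16.1%), and 7 of the 9 genes were among them. CIITA (adjusted p = 0.656) and HLA-DMA (0.439) were not. With the replicate number as a block, 48.6% of genes were called, among them 8 of the 9, and CIITA missed again (adjusted p = 0.0863).

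**Figure D2:**
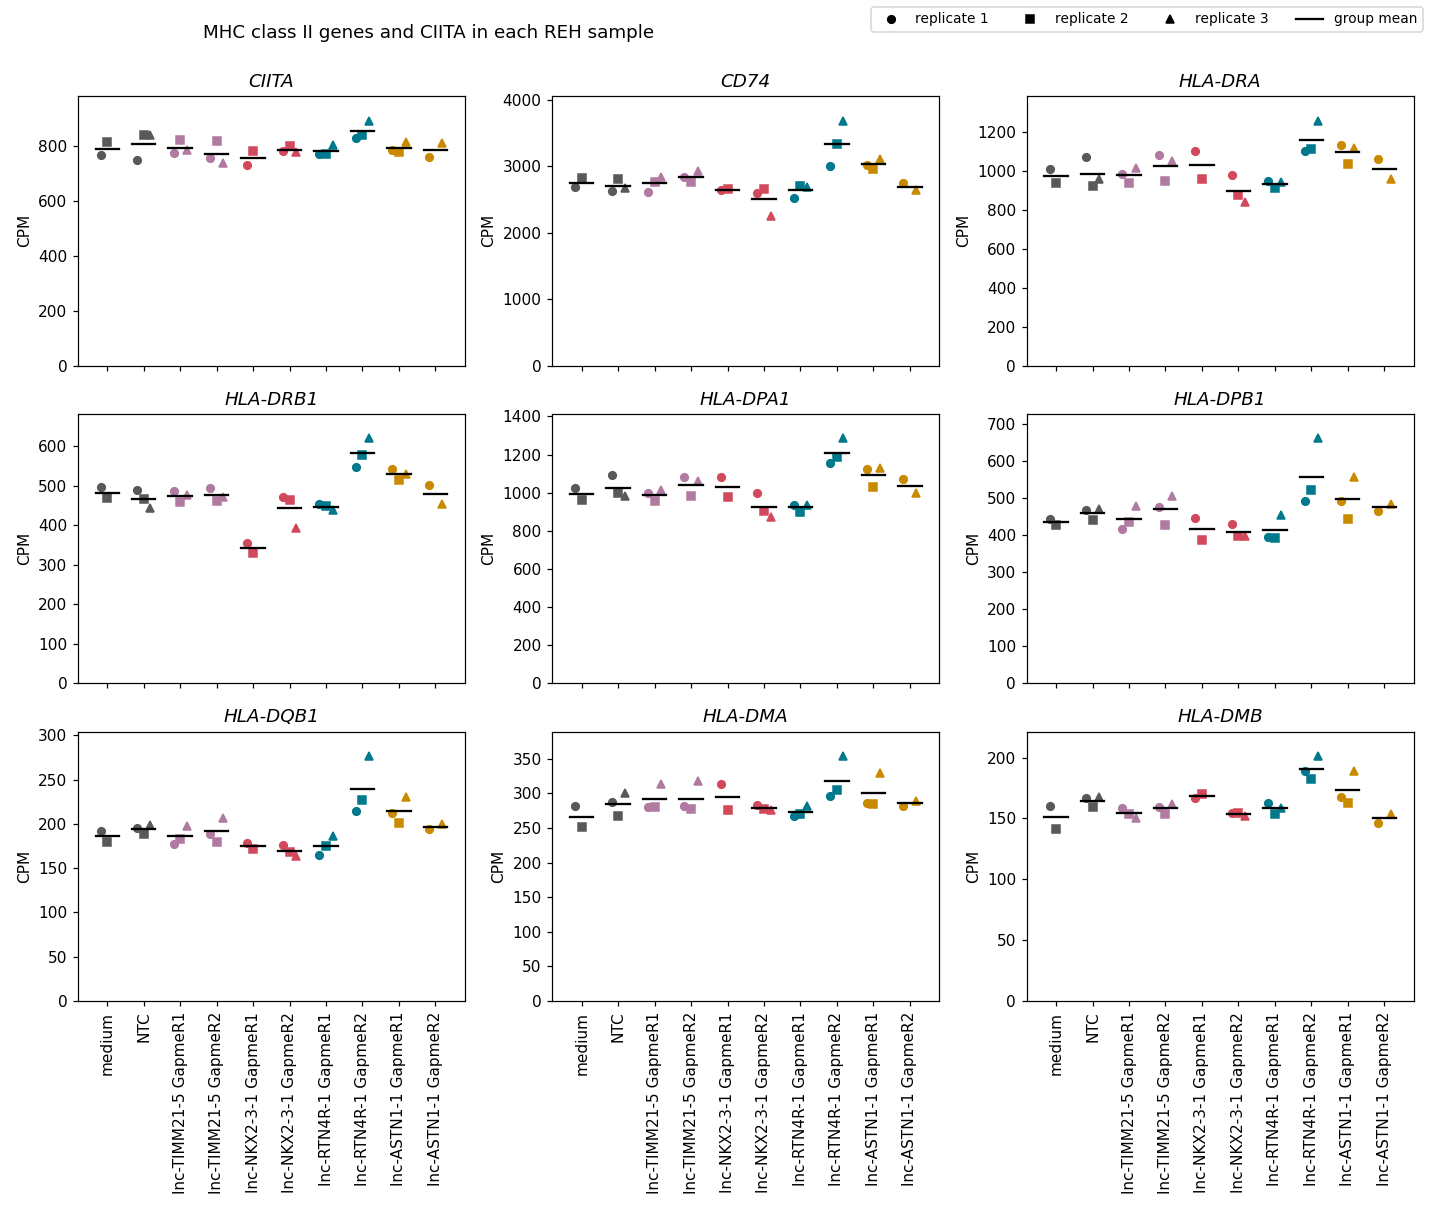
CPM of the 9 genes in each of 27 samples by treatment, with a panel and an axis from 0 for each gene. Symbols give the replicate number and bars the group mean. lnc-RTN4R-1 GapmeR2 has the highest mean in each panel, and HLA-DRB1 is lowest in both lnc-NKX2-3-1 GapmeR1 samples (356 and 331 CPM).

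The class II genes were higher with lnc-RTN4R-1 GapmeR2 than in the controls, by at most 25.8%. HLA-DRB1, the beta chain of HLA-DR, was at 548, 577 and 621 CPM in replicates 1 to 3, against 445 to 496 CPM in the 5 controls. HLA-DQB1, the beta chain of HLA-DQ, was at 215, 227 and 277 CPM against 179 to 198. CD74 was at 3000, 3344 and 3691 CPM against 2628 to 2827, and HLA-DMB at 189, 182 and 201 CPM against 142 to 168. In these 4 genes no GapmeR2 sample overlapped a control. Groups did not overlap for 7 of the 9 genes, in all of which GapmeR2 was higher, while 6.87% of all genes tested were separated in this direction. HLA-DRA was at 1099, 1110 and 1257 CPM against 923 to 1068, and HLA-DPA1, the alpha chain of HLA-DP, at 1156, 1185 and 1285 CPM against 964 to 1094. HLA-DPB1, the beta chain, was at 492, 520.2 and 661 CPM against 428 to 471. Replicate 3 stood out in HLA-DPB1 and lay closer to the others in HLA-DPA1. CIITA, at 829.4, 839 and 892 CPM against 748 to 838, and HLA-DMA, at 296, 305 and 354 CPM against 251 to 300.5, overlapped the controls.

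In edgeR's quasi-likelihood test of lnc-RTN4R-1 GapmeR2 (n = 3) against the controls (n = 5), 6.62% of 15050 genes were called and 2.76% were called higher, and 4 of the 9 genes rose. These were HLA-DQB1 by 25.8% (log2 fold change 0.33 ± 0.08 SE, adjusted p = 0.0256), HLA-DRB1 by 23.3% (0.30 ± 0.07, adjusted p = 0.0181), CD74 by 23.0% (0.30 ± 0.08, adjusted p = 0.0444) and HLA-DMB by 20.2% (0.27 ± 0.07, adjusted p = 0.0388). HLA-DPB1 (log2 fold change 0.31, adjusted p = 0.0567), HLA-DPA1 (0.26, 0.0505) and HLA-DRA (0.24, 0.0874) did not pass, nor did HLA-DMA (0.20, 0.169) and CIITA (0.10, 0.498). The median log2 fold change was 0.27 for the 9 genes and 0.01 for all genes. With the replicate number as a block, 22.4% of all genes were called in either direction, and 8 of the 9 genes were called, all higher. CIITA was not (adjusted p = 0.236). Without the block, the count was 0 with NTC as the only controls, where 3.80% of all genes were called. It was 0 without NTC replicate 2 (4.69% of all genes), GapmeR2 replicate 2 (3.45%) or GapmeR2 replicate 3 (4.76%). It was 1 without medium replicate 1 (4.49%) or medium replicate 2 (5.90%), and 2 without NTC replicate 1 (4.71%). In bulk samples a change in the share of cells that express a gene and a change in RNA per cell cannot be told apart.

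lnc-RTN4R-1 GapmeR1, which lowered the same lncRNA, did not show this rise. HLA-DRB1 was at 453, 449.7 and 439 CPM, HLA-DQB1 at 165, 175 and 186 CPM and HLA-DPA1 at 937, 899.9 and 937 CPM. Against the controls none of the 9 genes was called, none had an unadjusted p below 0.05 in edgeR and none was called by DESeq2, while 1.59% of all genes were called. With the replicate block HLA-DPB1, HLA-DQB1 and HLA-DPA1 fell (log2 fold changes -0.14, -0.13 and -0.13, edgeR adjusted p = 0.0158, 0.0301 and 0.0382), against 3.42% of all genes called lower.

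Both GapmeRs were compared directly. Every GapmeR1 sample lay below every GapmeR2 sample for all 9 genes, which held for 12.7% of all genes tested. In edgeR's test (n = 3 against 3), 2.19% of 14904 genes were called lower with GapmeR1, and 4 of the 9 genes were called. The log2 fold change of GapmeR1 against GapmeR2 was -0.45 ± 0.10 for HLA-DQB1 (adjusted p = 0.0291), -0.38 ± 0.07 for HLA-DPA1 (0.0153), -0.38 ± 0.07 for HLA-DRB1 (0.0149) and -0.27 ± 0.07 for HLA-DMB (0.048). With the replicate block all 9 genes were called lower, CIITA included (-0.13 ± 0.04, adjusted p = 0.0149), against 15.3% of all genes. The count without the block was 0 when GapmeR1 replicate 1, GapmeR1 replicate 2 or GapmeR2 replicate 2 was left out. Of all genes 2.29%, 2.87% and 2.49% were then called in either direction, against 5.92% with all samples. With both GapmeRs pooled against the controls none of the 9 genes was called, by edgeR or by DESeq2, and none had an unadjusted p below 0.05, while 0.476% of all genes were called. The block gave none of the 9 and 1.96% of all genes.

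**Figure D3:**
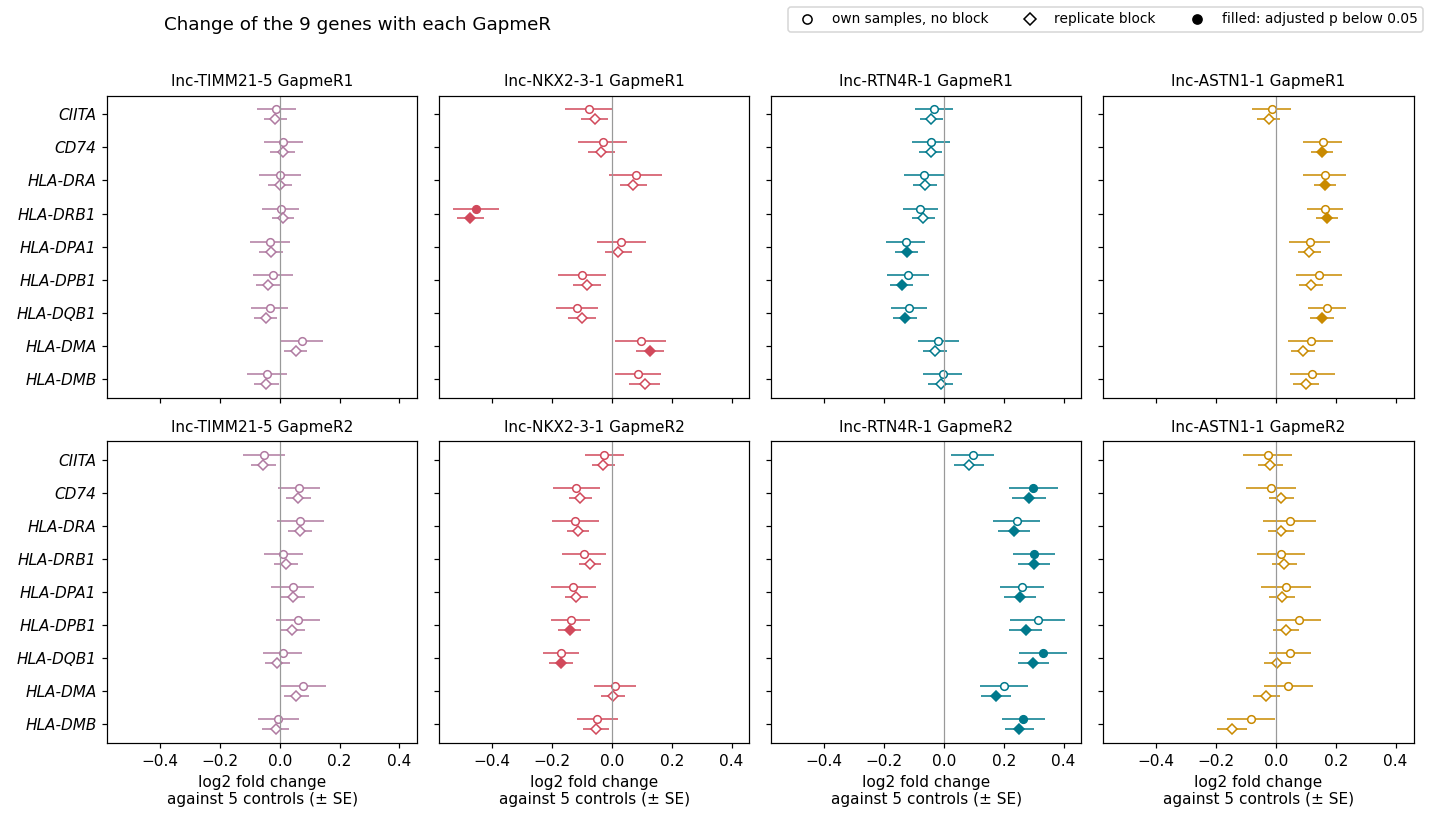
Log2 fold change of each gene with each GapmeR against the 5 controls, with SE as bars. Circles are the fit without and diamonds the fit with a replicate block, and filled symbols have an adjusted p below 0.05. lnc-RTN4R-1 GapmeR2 lies to the right of 0 for all 9 genes, and HLA-DRB1 stands alone at -0.45 with lnc-NKX2-3-1 GapmeR1.

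With lnc-NKX2-3-1 GapmeR1 the genes did not move together. HLA-DRB1 was at 356 and 331 CPM in replicates 1 and 2, below all 5 controls (445 to 496 CPM) and below all other 25 samples, whose lowest was 393 CPM. HLA-DRA, the alpha chain that pairs with HLA-DRB1, was at 1101 and 956 CPM against 923 to 1068 in the controls and overlapped them. HLA-DRB1 and HLA-DQB1 were the 2 genes of the 9 that lay below all controls, as did 18.6% of all genes tested. In edgeR's test (n = 2 against 5), 10.2% of 15402 genes were called lower and 7.41% higher. HLA-DRB1 fell (log2 fold change -0.45 ± 0.08, adjusted p = 0.00127) and was the only one of the 9 genes called. The log2 fold change was 0.08 ± 0.09 for HLA-DRA (adjusted p = 0.595), and for the other 7 it lay between -0.12 for HLA-DQB1 and 0.10 for HLA-DMA. CIITA was at 730 and 779 CPM against 748 to 838 (log2 fold change -0.08 ± 0.08, adjusted p = 0.573), and HLA-DQB1 at 178 and 172 CPM against 179 to 198. With the replicate block 36.4% of genes were called. HLA-DRB1 was called lower (-0.47 ± 0.05, adjusted p = 1.31e-10), and HLA-DMA was called higher (0.13 ± 0.05, adjusted p = 0.0265). HLA-DRB1 was called under 21 of 23 settings, with log2 fold changes from -0.50 to -0.40. The exceptions were the fits without replicate 1 and without replicate 2, each of which leaves 1 GapmeR1 sample and fewer controls. With 1 GapmeR1 sample left out and all controls kept, the adjusted p was 0.0154 and 0.0492, in fits that take the spread from the controls and assume that the lone sample varies like them.

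The ratio of HLA-DRB1 to HLA-DRA counts shows the difference within each sample. It was chosen after the values had been seen and is given without a test. The ratio was 0.324 and 0.347 in the lnc-NKX2-3-1 GapmeR1 samples and 0.451 to 0.532 in the other 25 samples. HLA-DRB5, which is not among the 9 genes, behaved alike: its ratio to HLA-DRA was 0.0748 and 0.0793 against 0.103 to 0.131 in the others. Its log2 fold change against the controls was -0.51 ± 0.08 (edgeR adjusted p = 6.38e-04). HLA-DRB5 and HLA-DRB1 stayed in a ratio of 0.211 to 0.258 over all 27 samples. Both genes are near-identical and only uniquely mapped reads were counted. How the authors' counting split reads between them is uncertain, so the fall of HLA-DRB5 may not be separate from that of HLA-DRB1. The ratio of HLA-DPA1 to HLA-DRA, which compares both other abundant chains, was 0.982 and 1.02 with GapmeR1 and 0.986 to 1.08 in the others. That of HLA-DPB1 to HLA-DPA1 was 0.397 and 0.413 with GapmeR1, also below the other 25 samples, which began at 0.417 and reached 0.514.

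**Figure D4:**
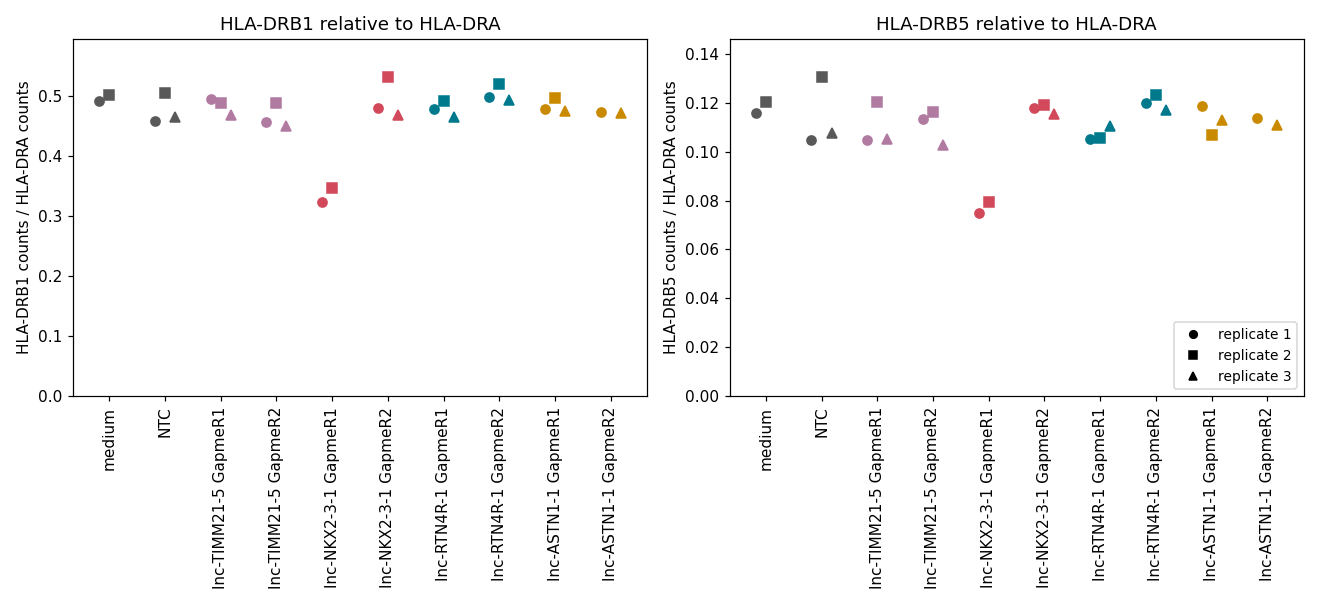
Counts of HLA-DRB1 (left) and HLA-DRB5 (right) divided by counts of HLA-DRA in each of 27 samples, by treatment, with axes from 0 and symbols for the replicate number. Both lnc-NKX2-3-1 GapmeR1 samples lie at 0.324 and 0.347 on the left, below the 0.451 to 0.532 of the other 25.

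lnc-NKX2-3-1 GapmeR2 did not lower HLA-DRB1 beyond the spread between replicates. It was at 471, 465 and 393 CPM, and its log2 fold change against the controls was -0.09 ± 0.07 (edgeR adjusted p = 0.913). None of the 9 genes and none of 15126 genes was called, while 615 genes and 1 of the 9 had an unadjusted p below 0.05, and DESeq2 called 8 genes and none of the 9. With the replicate block HLA-DQB1 and HLA-DPB1 fell (-0.17 and -0.14, edgeR adjusted p = 0.0127 and 0.035), against 1.28% of all genes. HLA-DQB1 was at 176, 168 and 164 CPM with GapmeR2 against 179 to 198 CPM in the controls, so low values of this gene were not particular to GapmeR1. In the direct comparison, GapmeR1 was lower than GapmeR2 for HLA-DRB1 (log2 fold change -0.36 ± 0.10, edgeR adjusted p = 0.0422) and for no other of the 9 genes, against 8.98% of all genes called lower. With the block HLA-DRB1 remained lower (-0.44 ± 0.03), and HLA-DRA, HLA-DMB and HLA-DPA1 were higher (0.15, 0.13 and 0.12), against 20.4% and 21.4% of all genes called lower and higher. That fit left 1 residual degree of freedom. GapmeR2 paired at most 11 bases with HLA-DRB1 and 12 with HLA-DRB5. With both GapmeRs pooled against the controls none of the 9 genes was called by edgeR or DESeq2, and 2 had an unadjusted p below 0.05. No gene of 14850 was called by edgeR in that comparison, while 1104 had an unadjusted p below 0.05 and DESeq2 called 7. The block called 0.0135% of all genes and none of the 9.

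The pairing of lnc-NKX2-3-1 GapmeR1 with all annotated spliced transcripts was set beside its changes, as a description chosen after the HLA-DRB1 values had been seen. Of 15190 tested genes with a transcript, 17 (0.112%) held a place where at least 14 bases paired, and 6 of these 17 were called lower and 1 higher. The 6 include HLA-DRB1 and HLA-DRB5, which prompted the count, and the target lncRNA, and of the 14 genes without these 3, 3 were called lower (21.4%) and 1 higher (median log2 fold change -0.07). Of 249 genes with 13 paired bases at their best place 26.5% were called lower and 6.83% higher. Of 2159 genes with 12, 15.8% were called lower and 9.08% higher, so these were called more often in both directions than all genes. Among all 15190 genes 10.2% were called lower and 7.49% higher. The median log2 fold change was -0.12 with 13 and -0.02 with 12 paired bases and 0.00 over all. The sets were not matched for transcript length, and the part of pairing in the change of HLA-DRB1 was not tested.

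lnc-ASTN1-1 GapmeR1 gave smaller differences that were called only with the replicate block. HLA-DRB1 was at 543, 515 and 531 CPM, CD74 at 3022, 2964 and 3114 CPM and HLA-DQB1 at 213, 201 and 230 CPM. These 3 genes did not overlap the controls, against 2.07% of all genes separated in this direction. None of the 9 genes was called by edgeR without the block or by DESeq2, and 4 had an unadjusted p below 0.05, while 0.718% of all genes were called. With the block HLA-DRB1 (log2 fold change 0.17), HLA-DRA (0.16), CD74 (0.15) and HLA-DQB1 (0.15) rose, with edgeR adjusted p of 0.00424, 0.0064, 0.0115 and 0.0147, against 4.86% of all genes called in either direction. No member was called in this blocked fit when replicate 3 was left out, where 2.26% of all genes were called. lnc-ASTN1-1 GapmeR2 gave log2 fold changes between -0.08 and 0.08, and none of the 9 genes was called with or without the block or by DESeq2, or had an unadjusted p below 0.05 without it. Of all genes 0.0130% were called without and 0.215% with the block. GapmeR1 against GapmeR2 gave 0 calls by edgeR and DESeq2, with none at an unadjusted p below 0.05 and 0.146% of all genes called, and 6 calls, all higher, with the block, against 1.39% of all genes called higher. That blocked fit had 1 residual degree of freedom, and the block in 1 fit of all samples called 1 of the 9 (1.67% of all genes). Both GapmeRs pooled against the controls gave no call of the 9 by edgeR or DESeq2, with 1 at an unadjusted p below 0.05 and 0.0136% of all genes called, and none with the block (0.881% of all genes).

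Neither lnc-TIMM21-5 GapmeR changed the 9 genes beyond the spread between replicates. Log2 fold changes against the controls lay between -0.04 and 0.07 for GapmeR1 and between -0.05 and 0.08 for GapmeR2. None was called with or without the block or by DESeq2, and none had an unadjusted p below 0.05 in edgeR, while 0.0790% and 0.0593% of all genes were called, and 2.79% and 0.330% with the block. The same held for both GapmeRs pooled (0.00665% of all genes called, 1.32% with the block) and for GapmeR1 against GapmeR2 (0.0784% and 0.503%). NTC and medium did not differ for any of the 9 genes in edgeR or DESeq2 (0 called, 0 at an unadjusted p below 0.05), with log2 fold changes from -0.05 for HLA-DRB1 to 0.13 for HLA-DMB. Over all genes edgeR and DESeq2 called 0, with 670 at an unadjusted p below 0.05 in edgeR, and the block called 1.53% of genes and none of the 9.

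Replicates were done on separate days per the methods, and the members differed between replicate numbers by different amounts. In a test of the replicate number within groups, 61.1% of 16268 genes were called, among them 7 of the 9. CD74 (edgeR adjusted p = 0.298) and HLA-DRB1 (0.0667) were not. Over the 7 groups with all 3 replicates, HLA-DPB1 lay 0.11 above its group mean on the log2 scale in replicate 3 (SD 0.09) and HLA-DMA 0.09 above (SD 0.06), each in 6 of 7 groups. In replicate 2, HLA-DRA, HLA-DPA1, HLA-DPB1, HLA-DQB1 and HLA-DMA lay below their group mean in all 7 groups. In the lnc-RTN4R-1 GapmeR2 group, replicate 3 was the highest for all 9 genes.

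After removal of the mean of each replicate number, the 8 genes without CIITA had correlations between 0.41 and 0.97 over the 27 samples (Pearson's r, median 0.77 of 28 pairs). CIITA correlated with these 8 at 0.25 to 0.58 (median 0.53). The values share libraries and scaling. The 5 genes most like HLA-DRA among 9628 genes of at least 10 CPM were MLF2 (r = 0.93), HLA-DQA1 (0.93), RPL7A (0.92), ADA (0.92) and RPS4X (0.92). Among those most like CIITA were RBMS2 (0.84), WIZ (0.83), CHD3 (0.81) and KIF1C (0.79).

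Other genes of the pathway were read from lists. With lnc-RTN4R-1 GapmeR2, where 2.76% of all genes were called higher and 3.85% lower, all 8 tested other class II genes had positive log2 fold changes against the controls (median 0.30), and 2 rose: HLA-DRB5 (0.30, edgeR adjusted p = 0.0172) and HLA-DQB2 (0.37, 0.048). HLA-DRB5 is near-identical to HLA-DRB1 and the split of reads between them is uncertain, so its rise may not be separate. Of 17 genes of the class I pathway 3 rose: HLA-F (0.46), CALR (0.34), a chaperone of class I loading, and TAP1 (0.31), a peptide transporter subunit. Of 8 tested genes of class II processing and turnover, the protease gene CTSL rose (0.69 ± 0.13, adjusted p = 0.00556). None of the 10 factors of class II promoters, such as RFX5 and NFYA, was called. Of 14 regulators of CIITA, SPI1 rose (0.39, adjusted p = 0.04) and JAK1 fell (-0.24, adjusted p = 0.033). Of 13 tested B-cell precursor markers, IGLL1 fell (-0.29). The single tested T and NK cell gene, NKG7, was called with the block (0.74, adjusted p = 0.0216) and not without it, and no erythroid or megakaryocyte gene was tested. With the block, which called 22.4% of all genes, the counts were 4 of 8 other class II genes, 9 of 17 class I genes, 3 of 8 processing genes, 2 of 10 promoter factors, 5 of 14 regulators and 7 of 13 B-cell precursor markers. With lnc-RTN4R-1 GapmeR1 against GapmeR2, HLA-DRB5 (-0.47) was the 1 of 8 other class II genes called, CTSL (-0.86) and CTSS (-0.40) fell among 8 processing genes, and 5 of 17 class I genes fell, among them HLA-F (-0.64), TAPBP (-0.29), NLRC5 (-0.31) and TAP1 (-0.38), against 2.19% of all genes called lower. With lnc-ASTN1-1 GapmeR1 no gene of these lists was called without the block. With it, HLA-DQA1 (0.19) and CTSB (0.28) rose, as did SPI1 (0.21) and IFNGR2 (0.19) among the regulators of CIITA and the myeloid markers MPO (0.21) and CSF1R (0.94), and IRF4 fell (-0.20), against 4.86% of all genes called.

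A marker of myeloid cells moved with the same group. MPO, a peroxidase of granulocyte precursors, was at 291 to 445 CPM with lnc-RTN4R-1 GapmeR2 and at 84.8 to 132 CPM in the controls (log2 fold change 1.78, edgeR adjusted p = 9.01e-05). CSF1R was at 2.03 to 2.59 CPM against 0.340 to 1.04 (log2 fold change 1.66, adjusted p = 0.00204). The summed level of the 10 myeloid and dendritic cell markers was 299 to 454 CPM with GapmeR2 and 89.8 to 139 CPM in the controls. Without MPO the other 9, CSF1R among them, summed to 6.00 to 8.94 CPM against 4.78 to 7.38 CPM, and these ranges overlapped. A sum without both MPO and CSF1R was not taken, so a rise of the rest of the list is not shown. The part of these markers in the class II values was not tested.

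In the fit of lnc-NKX2-3-1 GapmeR1 without the block, 7.41% of all genes were called higher and 10.2% lower. There, 6 of 14 regulators of CIITA rose and none fell, while CIITA itself was not called. They included IRF4 (log2 fold change 0.97, edgeR adjusted p = 9.32e-06), PRDM1 (2.12, 0.00144), a repressor of CIITA in plasma cells, IRF1 (0.56, 0.00231) and IRF2 (0.37, 0.0047). Of 10 promoter factors, CREB1 rose (0.24) and CREBBP (-0.28) and RFXANK (-0.27) fell. HLA-DRB5 was the 1 of 8 other class II genes called, and of 17 class I genes HLA-F fell (-0.32). Of 8 processing genes MARCHF8 (-0.32), a ligase that removes class II molecules from the surface, and CTSB (-0.33) fell. Of 13 B-cell precursor markers 3 rose, among them CD24 (0.71) and RAG1 (0.40), and EBF1 (-0.41) and CD22 (-0.40) fell, and MPO (0.84) and CSF1R (1.11) were higher. With the block, which called 36.4% of all genes, 9 regulators of CIITA rose and 1 fell, and the counts called were 7 of 10 promoter factors, 3 of 8 other class II genes, 3 of 8 processing genes, 7 of 17 class I genes, 10 of 13 B-cell precursor markers and 3 of 3 tested myeloid markers.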

How the data were processed

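RNA of 27 REH samples was sequenced. The labels describe ribodepleted, stranded total RNA, whereas the methods describe poly-A selection. The deposited values are raw counts per gene, which the authors made with STAR on hg38 from uniquely mapped reads. The annotation release was not given in the sources used here. Column 4 held 95.3% of the strand-specific counts and was used. It separates HLA-DPA1 from HLA-DPB1 on the opposite strand. Without strand, HLA-DPB1 kept 79.5% and HLA-DPA1 100% of their counts. HLA-DQB1, which overlaps neither of them, kept 74.7%. It is overlapped on the opposite strand by the lncRNA HLA-DQB1-AS1, which had 0 to 3 counts per sample. Identifiers were matched to GENCODE v44 (56434 matched, 4185 did not), and 71.5% to 77.0% of reads were assigned to genes.

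Counts were tested with edgeR 4.0.16 (R 4.3.3; TMM, robust quasi-likelihood F test, filterByExpr with a minimum count of 10 and total of 15), on the samples of each comparison, with Benjamini-Hochberg adjustment over all genes tested and a threshold of 0.05. All 9 genes passed the filter. CPM use TMM library sizes over all samples. The scripts were tested on simulated data, with changes larger than those of the 9 genes and no differences between days. Recovery of changes as small as those of the 9 genes was not tested. The members and lists were chosen with earlier results of these data known. The 9 genes were described in each comparison, and other list genes were named where called, at most 4 per list, smallest adjusted p first. Some genes that these rules name are not reported here. HLA-DRB5, MPO, CSF1R and NKG7, the count ratios and the promoter letters were singled out after values were seen.

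The methods put replicates on different days but do not say whether a replicate number stands for the same day in each group. Deviations from group means correlated at 0.263 on average for 109 pairs with the same number. For 218 pairs with different numbers the average was -0.130. Samples of a group came from 1 cell line, and p-values measure the spread between these samples only. All 24 pairs within groups differed by more than sampling noise (chi-square at least 3.30 per degree of freedom). Alternatives were DESeq2 1.42.0, RLE scaling, no low-count filter, unstranded counts, all samples in 1 fit, NTC as the only controls, a replicate block and leaving out replicates, and further combinations and single libraries were added after seeing the data.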

Additional observations from a re-analysis of the deposited data

Results flagged for a closer look

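HLA-DRB1 was lower with lnc-NKX2-3-1 GapmeR1 than with its GapmeR2 (log2 fold change -0.36). It was also lower with lnc-RTN4R-1 GapmeR1 than with its GapmeR2 (-0.38), as were HLA-DPA1 (-0.38), HLA-DQB1 (-0.45) and HLA-DMB (-0.27), each by edgeR's direct test of both GapmeRs against one lncRNA. Single samples stood apart from the rest of their pooled group in 3 of 45 sets of a gene and a pooled group, and chance gives about 1 in 20. CD74 was low in lnc-NKX2-3-1 GapmeR2 replicate 3 (2257 CPM). HLA-DMA was high in lnc-NKX2-3-1 GapmeR1 replicate 1 (314 CPM) and in lnc-ASTN1-1 GapmeR1 replicate 3 (329 CPM).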

How the results depend on the processing

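The replicate block, which pairs samples of the same replicate number, moved the number of the 9 genes called by edgeR. It went from 4 to 8 for lnc-RTN4R-1 GapmeR2 against controls, 4 to 9 for lnc-RTN4R-1 GapmeR1 against GapmeR2 and 0 to 3 for lnc-RTN4R-1 GapmeR1. For lnc-NKX2-3-1 it went from 1 to 2 for GapmeR1, 0 to 2 for GapmeR2 and 1 to 4 for GapmeR1 against GapmeR2. For lnc-ASTN1-1 it went from 0 to 4 for GapmeR1 and 0 to 6 for GapmeR1 against GapmeR2. With the block in 1 fit of all samples these counts were, in the same order, 8, 9, 1, 1, 1, 4, 3 and 1. The shares of all genes called were 26.3%, 26.3%, 8.80%, 35.8%, 3.17%, 33.4%, 4.77% and 1.67%. Both lnc-RTN4R-1 GapmeRs pooled gave 3 (15.6% of all genes), and both lnc-NKX2-3-1 GapmeRs pooled gave 2 (18.9%). With the block and NTC only the counts were 7 for lnc-RTN4R-1 GapmeR2 (19.2% of all genes) and 3 for lnc-RTN4R-1 GapmeR1 (8.56%). They were 3 for lnc-NKX2-3-1 GapmeR2 (1.61%) and 3 for lnc-ASTN1-1 GapmeR1 (4.58%). Without the block, lnc-RTN4R-1 GapmeR2 against controls gave 7 with DESeq2 (8.55% of all genes), 7 in 1 fit of all samples (9.56%) and 0 with NTC only (3.80%). lnc-RTN4R-1 GapmeR1 against GapmeR2 gave 7 with DESeq2 (7.44%), with no low-count filter (5.16%) and in 1 fit of all samples (9.09%). Both lnc-NKX2-3-1 GapmeRs pooled gave 1 in 1 fit of all samples (5.29%). The cause was not tested. Leaving out replicates or libraries gave 0 to 8 genes for lnc-RTN4R-1 GapmeR2, 0 to 9 for lnc-RTN4R-1 GapmeR1 against GapmeR2, 0 to 2 for lnc-NKX2-3-1 GapmeR1, 0 to 1 for lnc-NKX2-3-1 GapmeR1 against GapmeR2, 0 to 5 for lnc-ASTN1-1 GapmeR1, 0 to 8 over the 10 groups and 3 to 4 for the replicate number. These fits have fewer samples, and the share of all genes called moved as well. It was 1.40% to 17.8% for lnc-RTN4R-1 GapmeR2, 0.793% to 31.1% for lnc-RTN4R-1 GapmeR1 against GapmeR2 and 0.0596% to 7.35% for lnc-ASTN1-1 GapmeR1. Among 326 refits of single called genes none changed direction, and 91 no longer passed the threshold. The counts of the 9 genes, 2348 to 66464 per sample, were not limited by depth. With 2 or 3 samples per GapmeR, the spread between samples sets what could be called, and a difference of a member that missed the threshold is not shown to be absent. Reads of HLA genes were aligned to 1 reference sequence.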
